A study of Mus musculus with 12 samples.

Results

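The glycolysis and hypoxia response genes were 35 genes, found by symbol among the 45664 rows of the deposited table of raw counts. Of these, 19 belong to glycolysis: 11 transporters and enzymes of the upper steps, 5 enzymes of the lower steps and lactate formation, and 3 regulators. The other 16 belong to the pathway of the hypoxia-inducible factors (HIF): 4 subunits and oxygen sensors and 12 further targets. All 35 passed the filter on low counts, which left 20691 genes for the tests, and the lowest raw count of any of them in any library was 97.

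Whole hearts of mouse embryos were sequenced as bulk RNA, 1 library per embryo, in 4 groups of 3 embryos. E14.5 KO hearts (E for embryonic day, with the endothelial disruption of Ino80, a chromatin remodelling ATPase, that is labelled Tie2) were replicates 2 and 4 of litter 2 and replicate 1 of litter 3; E14.5 WT hearts were replicates 8 and 7 of litter 2 and replicate 7.2 of litter 3. E13.5 KO hearts were replicates 3, 5 and 7, and E13.5 WT hearts replicates 1, 4 and 2, all of litter 1. Tie2 is the endothelial angiopoietin receptor, and its promoter is active in endothelial cells and in many blood-forming cells, while cardiomyocytes lie outside that lineage. The labels do not state the WT alleles, the strain or which stretch of Ino80 was deleted, and their entry naming the disruption is the same for WT and KO samples. Single hearts are called by stage, genotype and replicate number, as in E14.5 KO 2. In such bulk samples, fewer cells of a type and less RNA per cell cannot be told apart.

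Glycolysis splits glucose into pyruvate and yields ATP without oxygen, and lactate dehydrogenase then turns pyruvate into lactate. When oxygen is plentiful, EGLN prolyl hydroxylases mark the HIF alpha subunits Hif1a and Epas1 for destruction; when it is scarce, the subunits persist, pair with ARNT and switch on genes through a short DNA core, the hypoxia response element. Nearly every glycolytic enzyme is among the known targets, which is why both groups are described together. The midgestation heart grows before its coronary vessels are complete and draws much of its energy from glycolysis. Levels below are CPM, counts scaled to a common library total, listed heart by heart in the replicate order given above, and fold changes are log2 values of the edgeR fit with their standard errors (SE).

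Hypoxia response elements were sought in the promoters of the members, since HIF acts through them. RefSeq windows on GRCm38.p6, from 250 bases before to 50 after a gene's start, were found for 33 of the 35 members, with Ero1l under its newer name Ero1a. ACGTG or GCGTG, on either strand (so also CACGT or CACGC), stood in at least 1 window of 31 of the 33 genes (93.9%), against 46.7% of the 27025 genes of that table. ACGTG alone, on either strand, stood in 24 of the 33 (72.7%), against 21.8%. Counted by window, either core stood in 80% of the 50 windows of members, against 43.8% of all 32851 windows. ACGTG alone stood in 56%, against 19.6%. The windows of Gpi1 and Tpi1 held neither core. The list holds many genes named in the literature as HIF targets. Base composition and the number of windows per gene were not matched, so the shares describe the list and no more. The sequences are the 250 bases before the start of both procollagen hydroxylase genes called in the comparison of KO with WT (P4ha1, P4ha2), of the oxygen sensor with the highest fold change (Egln3), and of 3 glycolysis genes whose KO hearts all lay above the WT hearts at both stages (Slc16a3, Pgk1, Ldha). They run 5′ to 3′ along the gene's strand, and capitals mark each match to either core on either strand; in Ldha the palindrome CACGTG, in which both strands match, occurs at 2 places.
P4ha1 (chr10:59323046-59323295, + strand): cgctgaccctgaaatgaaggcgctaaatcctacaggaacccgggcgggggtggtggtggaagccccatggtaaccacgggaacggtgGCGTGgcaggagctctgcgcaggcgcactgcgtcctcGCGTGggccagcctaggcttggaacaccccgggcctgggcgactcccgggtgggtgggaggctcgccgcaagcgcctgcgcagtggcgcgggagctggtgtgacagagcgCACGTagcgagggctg
P4ha2 (chr11:54100674-54100923, + strand): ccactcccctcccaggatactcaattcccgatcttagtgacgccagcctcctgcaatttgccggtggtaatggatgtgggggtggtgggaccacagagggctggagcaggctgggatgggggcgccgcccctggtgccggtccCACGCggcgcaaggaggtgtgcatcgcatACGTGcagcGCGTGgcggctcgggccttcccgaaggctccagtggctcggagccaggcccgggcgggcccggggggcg
Egln3 (chr12:54203875-54204124, − strand): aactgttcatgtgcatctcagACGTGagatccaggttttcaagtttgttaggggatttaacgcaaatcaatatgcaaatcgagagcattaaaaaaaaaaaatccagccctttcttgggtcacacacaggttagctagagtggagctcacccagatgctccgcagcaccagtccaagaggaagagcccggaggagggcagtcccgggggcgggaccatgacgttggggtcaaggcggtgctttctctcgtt
Slc16a3 (chr11:120948817-120949066, + strand): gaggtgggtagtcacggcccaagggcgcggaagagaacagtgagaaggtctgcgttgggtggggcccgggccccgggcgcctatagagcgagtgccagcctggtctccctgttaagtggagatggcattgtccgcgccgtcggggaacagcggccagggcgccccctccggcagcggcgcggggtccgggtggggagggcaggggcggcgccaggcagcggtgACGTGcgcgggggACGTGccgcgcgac
Pgk1 (chrX:106186850-106187099, + strand): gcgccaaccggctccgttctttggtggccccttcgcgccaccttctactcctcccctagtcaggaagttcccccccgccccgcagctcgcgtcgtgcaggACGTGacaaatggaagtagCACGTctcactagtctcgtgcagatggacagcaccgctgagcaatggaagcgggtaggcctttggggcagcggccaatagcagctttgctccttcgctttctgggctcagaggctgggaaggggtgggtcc
Ldha (chr7:46845554-46845803, + strand): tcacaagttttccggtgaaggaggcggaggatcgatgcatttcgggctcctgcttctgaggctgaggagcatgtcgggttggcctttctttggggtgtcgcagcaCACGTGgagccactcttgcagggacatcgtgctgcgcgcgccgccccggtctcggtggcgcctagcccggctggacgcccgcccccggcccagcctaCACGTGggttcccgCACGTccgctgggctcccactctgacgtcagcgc

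Libraries held between 46556032 and 182545647 counts. Ino80 itself was read at 27.0 to 31.9 CPM in the 6 KO hearts and 30.7 to 36.6 CPM in the 6 WT hearts, and edgeR detected no difference (adjusted p = 0.22). Read over whole hearts, with the deleted stretch not stated, Ino80 gives no check of the labels. The 10 endothelial markers summed to 1010 to 1108 CPM in E14.5 KO and 896.5 to 1050 CPM in E14.5 WT hearts, and to 902 to 932 CPM in E13.5 KO and 955 to 1036 CPM in E13.5 WT hearts. Averaged over the stages, 6 of the 10 lay above 0 in KO against WT hearts. By edgeR at an adjusted p under 0.05, 2 were called lower (0.585% of all genes) and 0 higher (0.831%), the lowest log2 fold change being -0.85. Before any result, 3 KO hearts stood apart by markers of other cells. The summed level of 12 macrophage and leukocyte markers was 40.9 CPM in E14.5 KO 2 and 42.6 CPM in E13.5 KO 5, called the macrophage-poor hearts here. In the other hearts it was 113 to 142 CPM at E14.5 KO and 81.1 to 82.6 CPM at E13.5 KO, against 102 to 118 CPM at E14.5 WT and 122 to 134 CPM at E13.5 WT. The remaining E13.5 KO hearts thus also lay below every E13.5 WT heart. Fits without the macrophage-poor hearts still hold these lower KO hearts. The summed level of 9 erythroid markers was 41930 CPM in E14.5 KO 1, against 4792 to 18410 CPM in the other 11 hearts. Mean log2 CPM of 4 Y-linked genes was 5.41 to 5.72 in E14.5 KO 4, E14.5 WT 7.2, E13.5 KO 3 and 7, and E13.5 WT 2. In the other hearts it was -3.72 or less, so both sexes were present, unevenly between KO and WT at E13.5. The 12 cardiomyocyte markers summed to 26450 to 34160 CPM in KO hearts and 28750 to 35040 CPM in WT hearts, which bears out the labelled tissue, and the skeletal muscle regulators Myod1, Myog, Myf5 and Pax7 stayed under 1 CPM in all 12 hearts.

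Whether the disruption went with a different level of these genes was asked with the mean of the KO effects at both stages, 6 KO against 6 WT hearts. Most members were slightly higher in KO hearts, and 2 of them passed the test: P4ha1 and P4ha2, the catalytic subunits of the prolyl hydroxylase that matures collagen chains. By edgeR at an adjusted p under 0.05, 2 of 35 members rose, where 0.831% of all genes tested rose, and 0 of 35 fell, where 0.585% of all genes fell. The 19 glycolysis genes lay above 0 in 16 cases, with a median log2 fold change of 0.19, and the 16 HIF pathway genes in 12 cases, with a median of 0.15. Over all 20691 genes, 10206 lay above 0, with a median of -0.0022. Without adjustment, 18 of 35 members had a p under 0.05 in edgeR, against 14.7% of all genes. DESeq2 called 8 members (Slc16a3, Pfkl, Pgk1, Pgam1, Ldha, P4ha1, P4ha2, Bnip3), against 4.75% of all genes. Leaving out single hearts moved the edgeR count between 0 (without E13.5 WT 4 or E13.5 KO 5) and 5 (without E14.5 KO 4, which adds Pgk1, Ldha and Higd1a). The share of all genes called moved too in these fits, from 0.599% (without E13.5 WT 4) to 2.31% (without E14.5 KO 1). The members differed in how evenly this held: all 5 lower glycolytic enzymes, 9 of 11 upper ones and 10 of 12 further HIF targets lay above 0, but only 2 of 4 HIF subunits and sensors.

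**Figure D1:**
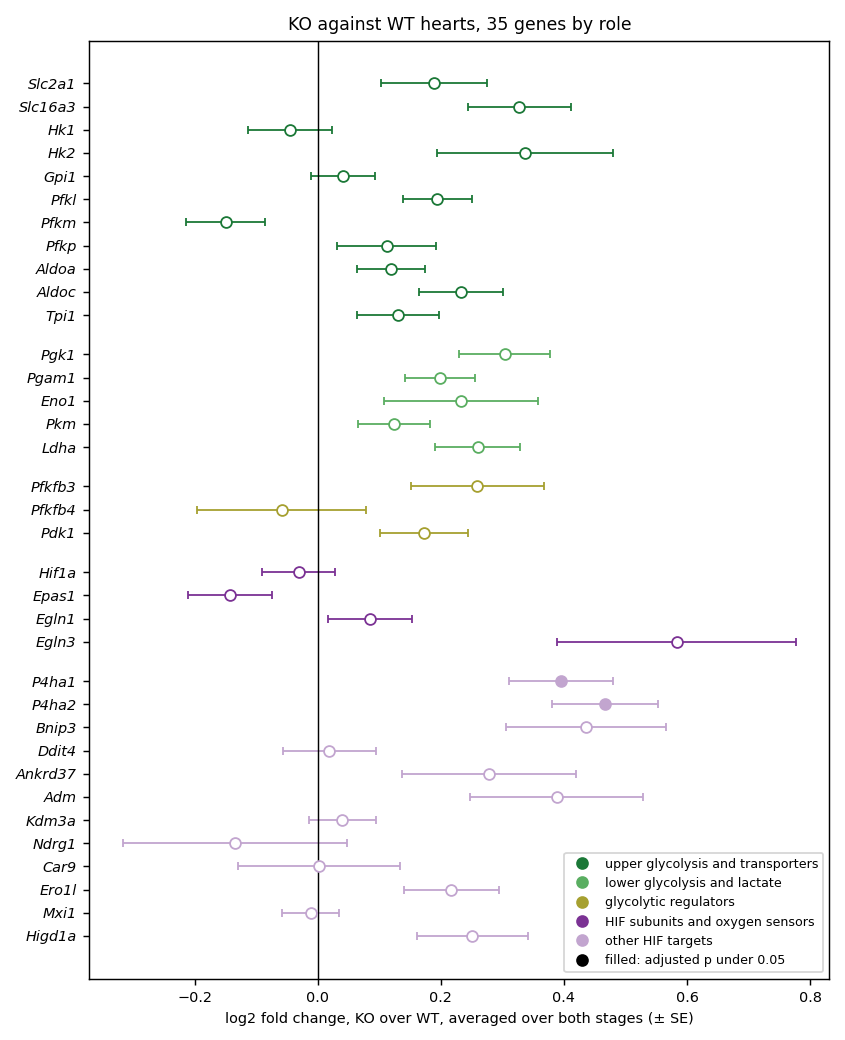
Log2 fold change of KO over WT averaged over both stages (x axis, ± SE) for the 35 genes (rows), coloured by role; filled points passed an adjusted p of 0.05 in edgeR. P4ha1 (0.40) and P4ha2 (0.47) are the filled points, Egln3 lies farthest right at 0.58 with an SE of 0.19, and 7 genes lie left of 0.

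P4ha2 (chromosome 11, 54100095 to 54131665 on GRCm38) hydroxylates prolines of collagen chains in the endoplasmic reticulum. Its level at E14.5 was 36.0, 28.8 and 33.6 CPM in KO hearts, against 27.2, 19.9 and 24.3 CPM in WT hearts. The E13.5 KO hearts had 34.1, 39.7 and 34.4 CPM, against 28.5, 26.4 and 22.9 CPM in E13.5 WT hearts. At each stage every KO heart lay above every WT heart. P4ha2 rose by 0.47 ± 0.09 averaged over the stages (edgeR, adjusted p = 0.0184), with 0.46 ± 0.12 at E14.5 and 0.47 ± 0.12 at E13.5. Within litters, KO minus WT on the log2 scale was 0.47 in litter 2, 0.47 in litter 3 and 0.48 in litter 1. Its call was lost without E13.5 WT 4 (adjusted p = 0.0517), without E13.5 KO 5 (0.0528), and without both macrophage-poor hearts (0.117), where the fold change was 0.39.

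P4ha1 (chromosome 10, 59323296 to 59373304), the other main catalytic subunit, gave 112, 82.4 and 89.3 CPM at E14.5 in KO hearts, against 66.0, 59.1 and 67.8 CPM in WT hearts. Values at E13.5 were 76.5, 87.0 and 80.5 CPM in KO hearts, against 78.3, 70.1 and 58.7 CPM in WT hearts. The groups did not overlap at E14.5, while at E13.5 KO 3 lay below WT replicate 1. P4ha1 rose by 0.40 ± 0.08 averaged over the stages (edgeR, adjusted p = 0.0394), with 0.56 ± 0.12 at E14.5 and 0.23 ± 0.12 at E13.5. The difference between these stage effects was 0.32 ± 0.17 and did not pass (adjusted p = 0.997). Its call held when E13.5 WT 1, E14.5 KO 4 or E14.5 KO 1 was left out, and was lost without any one of the other 9 hearts, with adjusted p between 0.0633 (without E13.5 KO 3) and 0.107 (without E13.5 KO 5). Without both macrophage-poor hearts, its fold change was 0.30 (adjusted p = 0.162).

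Among the transporters and upper steps of glycolysis, 9 of 11 genes lay above 0 averaged over the stages (median 0.13) and none was called by edgeR. Slc16a3, the lactate exporter MCT4, had 167, 130 and 140 CPM at E14.5 in KO hearts, against 126, 96.4 and 116 CPM in WT hearts. In E13.5 hearts the level was 167, 180 and 152 CPM in KO, against 142, 148 and 119 CPM in WT. Every KO heart lay above every WT heart of its stage, and the averaged log2 fold change was 0.33 ± 0.08 (adjusted p = 0.08). Pfkl, the liver-type subunit of phosphofructokinase, which commits glucose to glycolysis, had 254, 234 and 248 CPM at E14.5 in KO hearts, against 226, 188 and 196 CPM in WT hearts. At E13.5 it had 288, 276 and 256 CPM in KO hearts, against 267, 244 and 243 CPM in WT hearts. Its groups were apart at E14.5 only, and its averaged fold change was 0.19 ± 0.06 (adjusted p = 0.111).

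Slc2a1, the glucose importer GLUT1, had 159, 167 and 149 CPM at E14.5 in KO hearts, against 155, 131 and 121 CPM in WT hearts. The E13.5 KO hearts had 184, 224 and 207 CPM, against 211, 191 and 152 CPM in E13.5 WT hearts. Its groups overlapped at both stages (averaged 0.19 ± 0.09, adjusted p = 0.333). The hexokinases, which trap glucose in the cell, gave 0.34 ± 0.14 for Hk2 and -0.04 ± 0.07 for Hk1. The phosphofructokinase subunits gave 0.11 ± 0.08 for Pfkp and -0.15 ± 0.06 for the muscle form Pfkm, whose E13.5 KO hearts all lay below the E13.5 WT hearts. The aldolases Aldoa (0.12 ± 0.06) and Aldoc (0.23 ± 0.07), the isomerase Gpi1 (0.04 ± 0.05) and triosephosphate isomerase Tpi1 (0.13 ± 0.07) completed the group, with adjusted p of 0.116 or more for these 8 genes.

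All 5 enzymes of the lower steps lay above 0, and none was called by edgeR. Their median of 0.23 was the value of Eno1, which shares reads with a copy described below. Pgk1, phosphoglycerate kinase, had 1265, 940.2 and 939 CPM at E14.5 in KO hearts, against 882, 765 and 807 CPM in WT hearts. Values at E13.5 were 1001, 1053 and 949 CPM in KO hearts, against 821, 862 and 842 CPM in WT hearts. Every KO heart lay above every WT heart of its stage (averaged 0.30 ± 0.07, adjusted p = 0.0626). Ldha, the dehydrogenase subunit that favours lactate, had 1559, 1168 and 1305 CPM at E14.5 in KO hearts, against 1158, 1047 and 1032 CPM in WT hearts. In E13.5 hearts the level was 1436, 1374 and 1252 CPM in KO, against 1224, 1187 and 1117 CPM in WT. Its groups did not overlap at either stage, with E14.5 KO 4 just above E14.5 WT 8 (averaged 0.26 ± 0.07, adjusted p = 0.0882).

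Pkm, pyruvate kinase, had 1086, 1189 and 1143 CPM at E14.5 in KO hearts, against 1059, 950.1 and 1079 CPM in WT hearts. At E13.5 it had 1469, 1264 and 1212 CPM in KO hearts, against 1280, 1207 and 1190 CPM in WT hearts. Its groups were apart at E14.5 only, by a small margin (averaged 0.12 ± 0.06, adjusted p = 0.345). Eno1, an enolase, had 525, 667 and 442 CPM at E14.5 in KO hearts, against 558, 378 and 389 CPM in WT hearts. The E13.5 KO hearts had 690.3, 666 and 549 CPM, against 607, 605 and 491 CPM in E13.5 WT hearts. Its groups overlapped at both stages and it varied most of the 5 between hearts (averaged 0.23 ± 0.13, adjusted p = 0.418). Pgam1, phosphoglycerate mutase, gave 0.20 ± 0.06 (adjusted p = 0.11).

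Some of these enzymes have near-identical copies that take reads as rows of their own, and the sources used here do not say how such reads were counted. Pgk1-rs7 held 138% to 150% of the count of Pgk1, and Eno1b 118% to 165% of that of Eno1, over the 12 libraries. Of the 50-base windows of the Pgk1 transcripts, 53.9% also occur in other genes, against 36.2% for Pgam1, 26% for Eno1, 14.2% for Pkm and 9.03% for Ldha. Among the HIF targets the share was 16.5% for Bnip3, 0.244% for P4ha2 and 0% for P4ha1. Copy rows of Pkm and Bnip3 were not examined. Of the copies, Pgk1-rs7 had an averaged log2 fold change of 0.28 ± 0.08 (edgeR, adjusted p = 0.0854), Eno1b 0.13 ± 0.06 (0.319) and Aldoart1, at 6.35% to 8.91% of the count of Aldoa, 0.25 ± 0.07 (0.109). Pgam1-ps2, at 50.8% to 58.4% of the count of Pgam1, gave 0.21 ± 0.05 (0.0644), and Pgam1-ps1, at 6.45% to 7.3%, rose by 0.23 ± 0.05 (0.0337). Ldha-ps2, at 11% to 13.4% of the count of Ldha, rose by 0.32 ± 0.06 (0.0173). The small rows Ldha-ps and Aldoart2, at no more than 0.391% and 1.41% of their partners, gave 0.65 ± 0.24 (0.219) and 0.53 ± 0.35 (0.52). With copies added, the averaged fold change was 0.29 for Pgk1 (adjusted p = 0.077), 0.27 for Ldha (0.0737), 0.20 for Pgam1 (0.0816), 0.13 for Aldoa (0.29) and 0.17 for Eno1 (0.335), none of them called.

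The regulators lay on both sides of 0. Pfkfb3 makes fructose bisphosphate that activates phosphofructokinase, and had 41.4, 33.4 and 29.3 CPM at E14.5 in KO hearts, against 31.1, 29.3 and 23.6 CPM in WT hearts. Values at E13.5 were 35.7, 37.3 and 31.0 CPM in KO hearts, against 34.4, 31.0 and 24.3 CPM in WT hearts. The groups overlapped (averaged 0.26 ± 0.11, adjusted p = 0.288). Its paralogue Pfkfb4 had 2.69, 2.83 and 4.18 CPM at E14.5 in KO hearts, against 3.38, 3.27 and 4.03 CPM in WT hearts. In E13.5 hearts the level was 2.85, 2.51 and 3.29 CPM in KO, against 2.73, 3.18 and 2.63 CPM in WT, so that the groups overlapped here too (averaged -0.06 ± 0.14, adjusted p = 0.877). Pdk1, a pyruvate dehydrogenase kinase, had 493, 374 and 426 CPM at E14.5 in KO hearts, against 361, 345 and 393 CPM in WT hearts. At E13.5 it had 362, 354 and 305 CPM in KO hearts, against 334, 318 and 293 CPM in WT hearts. Its groups overlapped at both stages (averaged 0.17 ± 0.07, adjusted p = 0.281).

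The transcripts of both HIF alpha subunits lay slightly below 0, and neither was called. Hif1a lay between 246 and 305 CPM in E14.5 KO and between 261 and 290 CPM in E14.5 WT hearts, and between 296 and 316 CPM in E13.5 KO and between 294 and 334 CPM in E13.5 WT hearts, so its groups overlapped (averaged -0.03 ± 0.06, adjusted p = 0.848). Epas1 had 61.2, 61.2 and 79.1 CPM at E14.5 in KO hearts, against 64.2, 75.7 and 72.3 CPM in WT hearts. The E13.5 KO hearts had 50.9, 51.6 and 47.3 CPM, against 59.8, 54.9 and 58.7 CPM in E13.5 WT hearts. The E13.5 KO hearts lay below the E13.5 WT hearts, while the E14.5 groups overlapped (averaged -0.14 ± 0.07, adjusted p = 0.354). HIF proteins are set mainly by their breakdown, which transcript levels do not show.

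Egln3, the prolyl hydroxylase that HIF itself induces, had the highest averaged fold change of the 35 members and the largest SE. It had 94.5, 48.6 and 60.3 CPM at E14.5 in KO hearts, against 42.1, 33.0 and 56.2 CPM in WT hearts. Values at E13.5 were 30.1, 41.0 and 29.99 CPM in KO hearts, against 25.8, 25.5 and 18.02 CPM in WT hearts. The highest value of each KO group came from the macrophage-poor heart. The groups overlapped at E14.5, and the averaged fold change of 0.58 ± 0.19 did not pass (adjusted p = 0.193); without both macrophage-poor hearts it was 0.34. Egln1, the main sensor in most cells, gave 0.09 ± 0.07 (adjusted p = 0.596).

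Of the 12 further HIF targets, 10 lay above 0 with a median of 0.23, and only P4ha1 and P4ha2 were called. Bnip3, which drives removal of mitochondria, and Adm, the vasodilator adrenomedullin, are given because of their values, outside the rule for named genes. Bnip3 had 328, 213 and 198 CPM at E14.5 in KO hearts, against 178, 132 and 167 CPM in WT hearts, and 192, 220 and 182 CPM at E13.5 in KO hearts, against 172, 186 and 146 CPM in WT hearts. Its groups overlapped at E13.5 only (averaged 0.44 ± 0.13, adjusted p = 0.138). Adm had 10.3, 6.504 and 6.15 CPM at E14.5 in KO hearts, against 5.79, 5.41 and 5.23 CPM in WT hearts, and 5.25, 5.51 and 5.01 CPM at E13.5 in KO hearts, against 4.73, 4.89 and 3.14 CPM in WT hearts. Its groups were apart at both stages (averaged 0.39 ± 0.14, adjusted p = 0.207). In both genes E14.5 KO 2 stood far above the other hearts, and without both macrophage-poor hearts the averaged values were 0.26 and 0.24. The mitochondrial protein Higd1a (0.25 ± 0.09), the oxidoreductase Ero1l (0.22 ± 0.08) and Ankrd37 (0.28 ± 0.14) also lay above 0, with adjusted p of 0.202 or more.

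The remaining targets lay near 0 or below it. Ddit4, an inhibitor of mTORC1 also known as REDD1, had 46.4, 41.2 and 40.9 CPM at E14.5 in KO hearts, against 39.1, 46.0 and 35.4 CPM in WT hearts. In E13.5 hearts the level was 28.3, 36.4 and 34.5 CPM in KO, against 35.5, 34.5 and 33.1 CPM in WT. The groups overlapped at an averaged value of 0.02 ± 0.08, and its sign turned without E13.5 KO 5 (-0.0177), E14.5 KO 2 (-0.0122) or E14.5 WT 7.2 (-0.0251). Ndrg1 gave -0.14 ± 0.18, Mxi1 -0.01 ± 0.05, the histone demethylase Kdm3a 0.04 ± 0.05 and the carbonic anhydrase Car9, read at 2.07 to 3.26 CPM, 0.00 ± 0.13. The value of Car9 turned to -0.0915 without both macrophage-poor hearts, and the 12 further targets then split into 8 above and 4 below 0. The signs of Ndrg1 (0.0091) and Mxi1 (0.0003) turned without E13.5 WT 1, and that of Mxi1 also without E13.5 KO 3 (0.0058) or E14.5 WT 7.2 (0.0174).

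At single stages none of the 35 members passed in edgeR, at E14.5 (0 called, against 0.222% of all genes) or at E13.5 (0 called, against 0.106%). Unadjusted p-values under 0.05 numbered 14 of 35 at E14.5 (9.59% of all genes) and 7 at E13.5 (10.3% of all genes). DESeq2 called 3 members at E14.5, P4ha1, P4ha2 and Bnip3 (1.95% of all genes), and 1 at E13.5, P4ha2 (1.63% of all genes). The smallest adjusted p in edgeR were 0.0936 for P4ha1 at E14.5 and 0.215 for P4ha2 at E13.5. Counted by overlap alone, all 3 KO hearts lay above all 3 WT hearts for 12 members at E14.5 (34.3%, against 6.81% of all genes) and for 8 at E13.5 (22.9%, against 8.44%). The 3 KO hearts were all below the 3 WT hearts for 0 members at E14.5 (5.87% of all genes) and for 3 at E13.5, Pfkm, Epas1 and Mxi1 (8.57%, against 11.2%). At both stages at once, KO lay above WT for 5 members, Slc16a3, Pgk1, Ldha, P4ha2 and Adm (14.3%, against 1.75% of all genes), and below it for 0 (1.5% of all genes). The members move together from heart to heart, so these counts are not independent of one another.

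**Figure D2:**
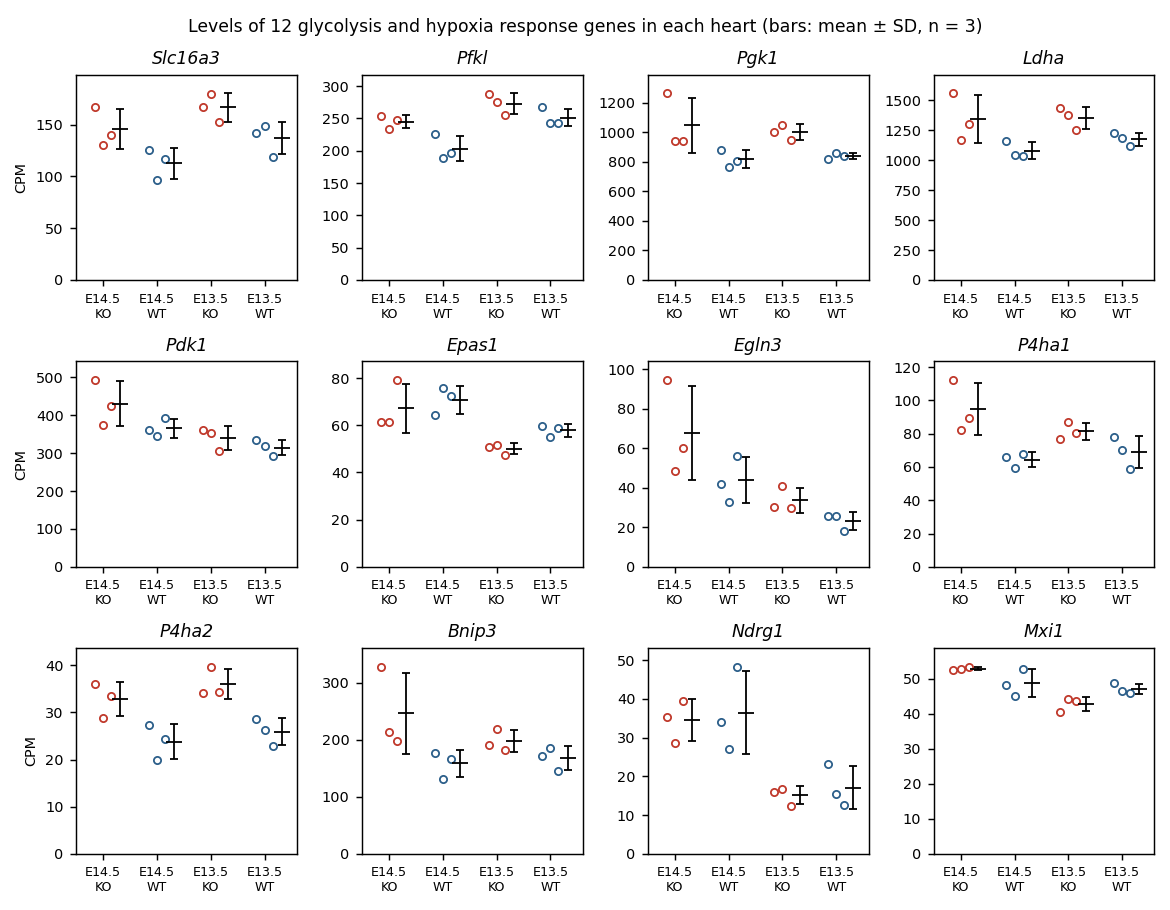
CPM (y axis, from 0) of 12 of the genes in each heart (circles) by group (x axis), with mean ± SD of the 3 hearts beside them. P4ha2, Slc16a3, Pgk1 and Ldha lie higher in every KO heart (red) than in the WT hearts (blue) of the same stage, and E14.5 KO 2 gives the highest circle of Egln3 (94.5 CPM), P4ha1 (112 CPM) and Bnip3 (328 CPM).

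How far single hearts carried these differences was seen by setting each heart against the mean of the WT hearts of its stage, leaving out the heart itself where it was WT. Among E14.5 KO hearts, 28 of 35 members lay above that mean in replicate 2 (median difference of log2 CPM 0.31), 26 in replicate 4 (0.12) and 33 in replicate 1 (0.15). Among E13.5 KO hearts it was 29 in replicate 3 (0.16), 29 in replicate 5 (0.23) and 19 in replicate 7 (0.01). The WT hearts spread widely too: against the other WT hearts of their stage, 23, 6 and 21 members lay above in E14.5 WT hearts 8, 7 and 7.2, and 32, 25 and 3 in E13.5 WT hearts 1, 4 and 2. The same shares over all genes lay between 48.5% and 52.7% in every heart, so the members shifted together even between WT littermates.

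The medians of glycolysis and the HIF pathway were also taken apart, with no test between them. In E14.5 KO 2 the median difference was 0.27 for the 19 glycolysis genes and 0.37 for the 16 HIF pathway genes, and in E13.5 KO 5 it was 0.17 and 0.31. The glycolysis median was the higher in E14.5 KO 1 (0.20, against 0.14) and E13.5 KO 3 (0.22, against 0.05), and the lower in E14.5 KO 4 (0.12, against 0.14) and E13.5 KO 7 (0.01, against 0.06). Without both macrophage-poor hearts, edgeR called 0 members averaged over the stages, against 0.297% of all genes. Then 17 of 19 glycolysis genes lay above 0 with a median of 0.15, and 10 of 16 HIF pathway genes with a median of 0.07. All 12 macrophage and leukocyte markers lay below 0 averaged over the stages (median -0.88, 0 called, none at 0 counts in all hearts), and 10 of 12 cardiomyocyte markers did (median -0.10). Their part in the differences of glycolysis and HIF genes was not tested.

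**Figure D3:**
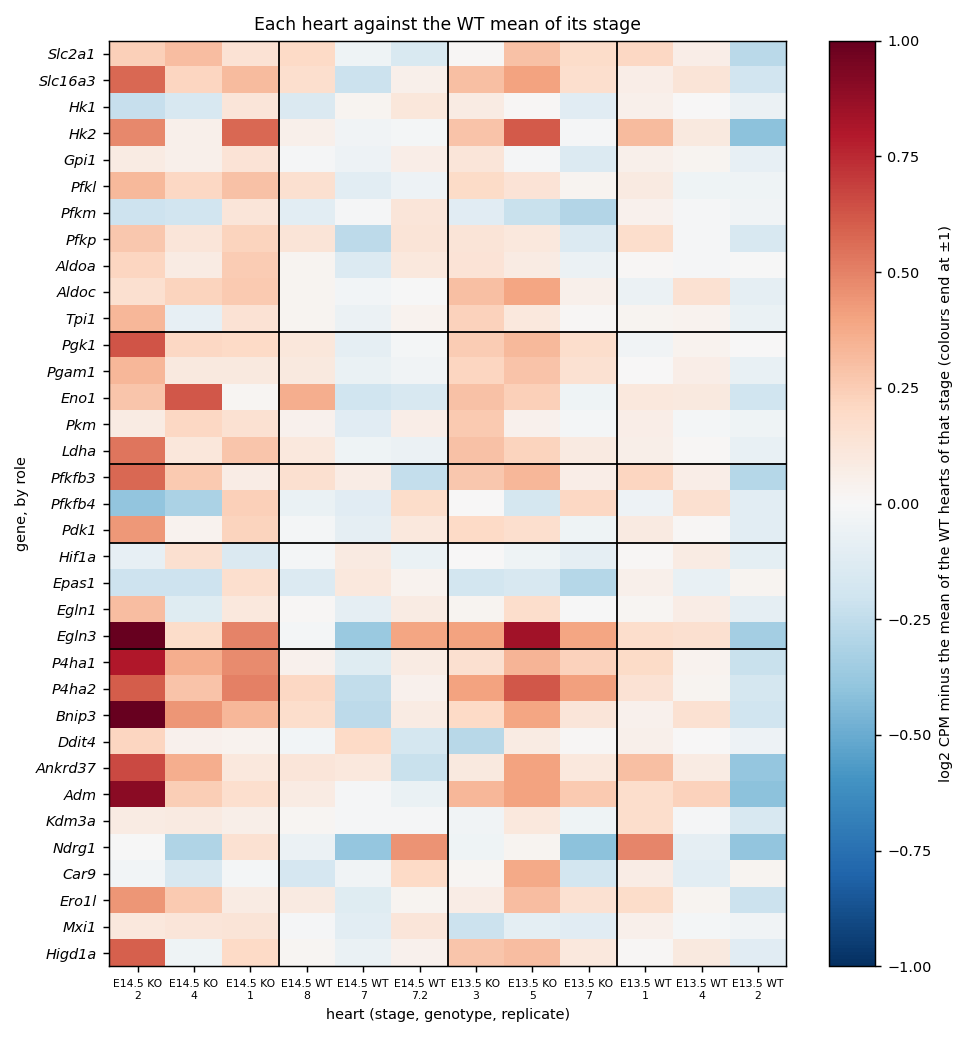
Log2 CPM of each gene (rows, by role) in each heart (columns, KO left of WT within a stage) minus the mean of the WT hearts of that stage; red is higher, blue lower. E14.5 KO 2 shows the deepest red, at Egln3, Bnip3 and Adm, and E13.5 WT 2 is blue in most rows.

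**Figure D4:**
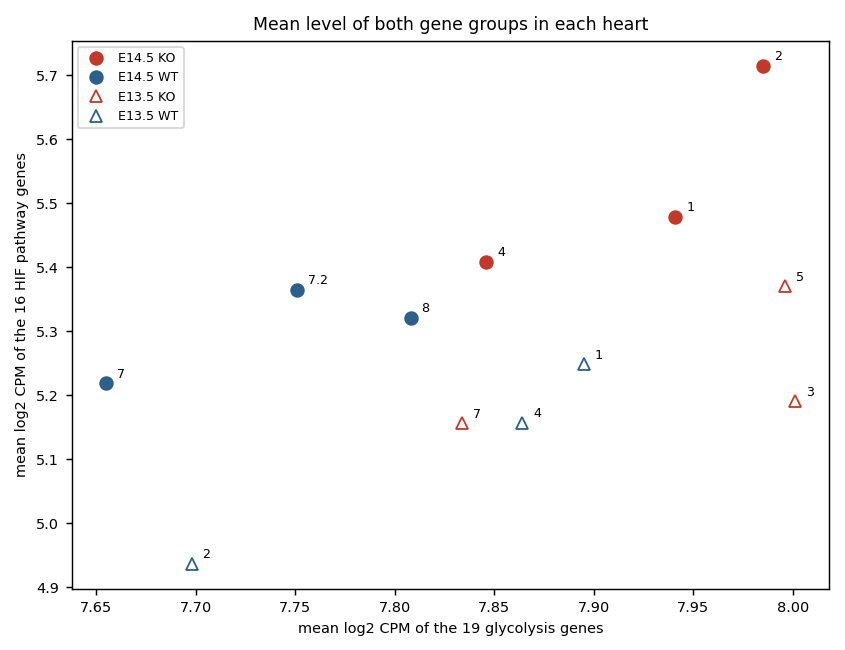
Mean log2 CPM of the 19 glycolysis genes (x axis) against that of the 16 HIF pathway genes (y axis), 1 point per heart with its replicate number; circles are E14.5, triangles E13.5, red KO and blue WT. The 3 E14.5 KO hearts (7.85 to 7.99 on the x axis) lie right of the 3 E14.5 WT hearts (7.66 to 7.81), while at E13.5 KO 7 (7.83) lies among the WT hearts (7.70 to 7.90).

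Each litter held both genotypes, so the difference can also be read within litters, as KO minus WT of the mean log2 CPM. In litter 2, with 2 KO and 2 WT hearts of E14.5, 16 of 19 glycolysis genes (median 0.20) and 15 of 16 HIF pathway genes (0.24) lay above 0. In litter 3, with 1 KO and 1 WT heart of E14.5, 19 of 19 glycolysis genes (0.15) and 13 of 16 HIF pathway genes (0.12) did. In litter 1, with 3 KO and 3 WT hearts of E13.5, it was 16 of 19 (0.12) and 11 of 16 (0.12). The medians over all genes were -0.0046, -0.0033 and 0.0021 in litters 2, 3 and 1. Egln3 and Bnip3 differed between litters, at 0.86 and 0.79 in litter 2, 0.10 and 0.25 in litter 3, and 0.55 and 0.24 in litter 1. Without litter 3, edgeR called 0 members averaged over the stages (P4ha1 adjusted p = 0.0777, P4ha2 0.0656), against 1.58% of all genes.

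The KO effect at E14.5 was then compared with that at E13.5. The difference, E14.5 minus E13.5, lay above 0 for 29 of 35 members, against 48.6% of all genes. These 29 include members such as Epas1, whose KO effect was below 0 at both stages and nearer to 0 at E14.5. The count depended on the fit. It was 24 of 35 without both macrophage-poor hearts, and ran from 20 to 32 over the 21 alternatives. No member passed in edgeR (0 called, against 0% of all genes), and DESeq2 also called 0 members (0.00967% of all genes). The median difference of the effects was 0.10 for the 19 glycolysis genes and 0.10 for the 16 HIF pathway genes. Mxi1, a repressor that antagonizes MYC, was the single member with an unadjusted p under 0.05 in edgeR (0.26 ± 0.09, adjusted p = 0.997), 1 of 35, against 3.61% of all genes. Mxi1 had 52.5, 52.8 and 53.4 CPM at E14.5 in KO hearts, against 48.2, 45.2 and 52.9 CPM in WT hearts. At E13.5 it had 40.5, 44.1 and 43.6 CPM in KO hearts, against 48.8, 46.5 and 45.9 CPM in WT hearts. KO hearts lay below WT hearts at E13.5 and, but for a narrow overlap, above them at E14.5.

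The second question was how these genes differed between E14.5 and E13.5 within a genotype. HIF pathway genes of KO hearts lay mostly above 0, that is, higher at E14.5, while most glycolysis genes of WT hearts lay below 0. In KO hearts edgeR called 3 of 35 members higher, Epas1, Ndrg1 and Mxi1 (2.11% of all genes rose), and 0 lower (1.63% of all genes fell). In WT hearts it called Ndrg1 higher (1 of 35, against 2.08% of all genes) and Pfkl lower (1 of 35, against 1.96%). With litter as a replicate block, 4 members were called in WT hearts, Slc2a1 and Epas1 besides those 2, against 8.33% of all genes, and 4 in KO hearts, against 6.79%. DESeq2 called 8 members in KO hearts (9.55% of all genes) and 7 in WT hearts (11.5%). Leaving out single hearts gave 0 to 6 calls in KO hearts (6 without E14.5 KO 4) and 0 to 2 in WT hearts. The share of all genes called in these fits ran from 0.316% to 5.09% in KO hearts and from 0.0383% to 5.17% in WT hearts. Of the 16 HIF pathway genes, 13 lay above 0 in KO hearts (median 0.30) and 10 in WT hearts (0.06). Over all genes, 50.7% lay above 0 in KO hearts and 50.5% in WT hearts. The 12 further targets gave 10 above 0 in KO hearts (0.26) and 7 in WT hearts (0.04). The 4 subunits and sensors gave 3 above 0 in KO hearts (0.36) and 3 in WT hearts (0.275). Of the 19 glycolysis genes, 9 lay above 0 in KO hearts (-0.01) and 5 in WT hearts (-0.10). Without both macrophage-poor hearts edgeR called 0 members in either genotype, against 0.613% of all genes in KO hearts and 2.23% in WT hearts. Without E14.5 KO 2 alone the KO medians were 0.14 for the HIF pathway and -0.10 for glycolysis. All E13.5 hearts came from litter 1 and all E14.5 hearts from litters 2 and 3, so stage and litter cannot be told apart.

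Ndrg1 (chromosome 15, 66929318 to 66969640), a stress-responsive gene also linked to myelin and differentiation, was the member with the largest difference between the stages. In KO hearts it had 35.4, 28.7 and 39.5 CPM at E14.5, against 16.03, 16.8 and 12.4 CPM at E13.5. In WT hearts it had 34.0, 27.1 and 48.3 CPM at E14.5, against 23.2, 15.5 and 12.5 CPM at E13.5. Every E14.5 heart lay above every E13.5 heart, in both genotypes. Such a lack of overlap within a genotype was common, at 12.1% of all genes in KO hearts and 14% in WT hearts. Ndrg1 rose by 1.20 ± 0.26 in KO hearts (edgeR, adjusted p = 0.0378) and by 1.09 ± 0.26 in WT hearts (0.0475). The call in KO hearts was lost without E13.5 KO hearts 3, 5 or 7, E13.5 WT 4, E14.5 KO hearts 2 or 1, or E14.5 WT 8, each left out singly (adjusted p 0.0521 to 0.129). The call in WT hearts held only when E14.5 WT 7 or E14.5 KO 4 was left out, and without any one of the other 10 hearts adjusted p was 0.0514 to 0.187.

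Epas1 (chromosome 17, 86753700 to 86833410), the HIF alpha subunit typical of endothelium, rose by 0.43 ± 0.10 in KO hearts (edgeR, adjusted p = 0.0333), with 0.29 ± 0.10 in WT hearts (0.0981). By the values given above, every E14.5 heart lay above every E13.5 heart of its genotype, as for 12.1% of all genes in KO hearts and 14% in WT hearts. Its call in KO hearts was lost without E13.5 KO hearts 3, 5 or 7 or E14.5 KO 1, each left out singly (adjusted p 0.0773 to 0.118). Of the 10 endothelial markers, 3 were called higher at E14.5 in KO hearts (2.11% of all genes) and 0 lower (1.63%). In WT hearts 1 was called higher (2.08% of all genes) and 1 lower (1.96%). Their part in the difference of Epas1 was not tested. Mxi1 (chromosome 19, 53310518 to 53375810) rose by 0.31 ± 0.07 in KO hearts (edgeR, adjusted p = 0.029), with 0.05 ± 0.07 in WT hearts (0.682). Its call was lost without the same 4 hearts, again singly (0.0686 to 0.0978). That the stage effect differed between genotypes was not shown for either gene, since the interaction did not pass.

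Pfkl (chromosome 10, 77986947 to 78010083) fell by 0.31 ± 0.08 in WT hearts at E14.5 (edgeR, adjusted p = 0.0477), with -0.15 ± 0.08 in KO hearts (0.298). By the values given above, every E14.5 heart lay below every E13.5 heart of its own genotype, as for 12.8% of all genes in KO hearts and 15.5% in WT hearts. Its call in WT hearts held when E14.5 WT 8 or any E14.5 KO heart was left out, and was lost without any one of the other 8 hearts (adjusted p 0.0574 to 0.193). Slc2a1 gave -0.37 ± 0.12 in KO hearts (adjusted p = 0.107) and -0.45 ± 0.12 in WT hearts (0.0586). Egln3 gave 1.01 ± 0.27 in KO hearts (adjusted p = 0.0739) and 0.92 ± 0.28 in WT hearts (0.0874), Ddit4 0.37 ± 0.11 (0.0679) and 0.23 ± 0.11 (0.228), and Pdk1 0.34 ± 0.10 (0.0786) and 0.22 ± 0.10 (0.221).

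**Figure D5:**
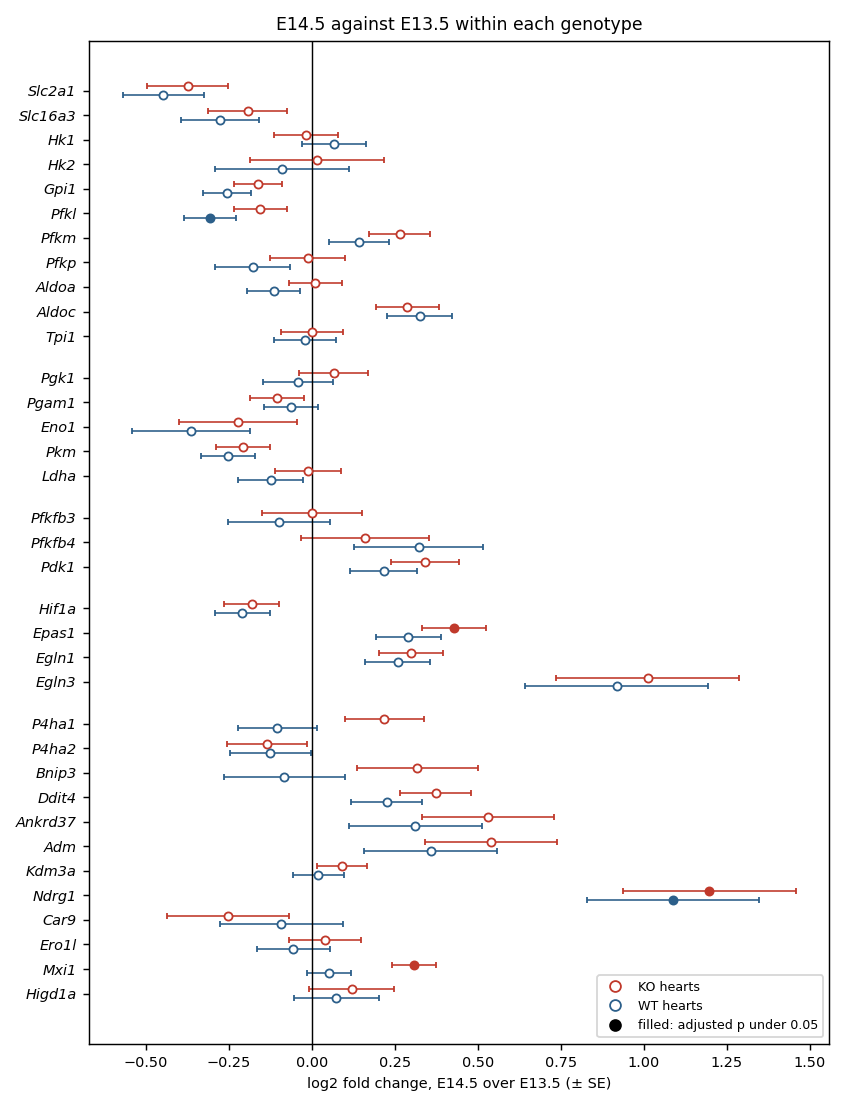
Log2 fold change of E14.5 over E13.5 (x axis, ± SE) for each gene (rows, by role) in KO hearts (red) and WT hearts (blue); filled points passed an adjusted p of 0.05 in edgeR. Ndrg1 lies farthest right in both genotypes (1.20 in KO, 1.09 in WT), and Slc2a1 farthest left (-0.37 in KO, -0.45 in WT).

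Other genes of the same pathways, outside the 35, were counted from lists chosen by function. Of 29 tested genes of glycolysis, lactate and pyruvate use, 15 lay above 0 in KO against WT averaged over the stages (median 0.01). Of these 29, 0 were called higher (0.831% of all genes) and 1 lower (0.585%). That gene, the gluconeogenic phosphatase Fbp1, fell by 2.53 ± 0.48 (edgeR, adjusted p = 0.0196) at very low levels of 0.0916 CPM in E14.5 KO and 0.433 CPM in E14.5 WT hearts, and of 0.0324 CPM in E13.5 KO and 0.313 CPM in E13.5 WT hearts. Of 29 tested HIF pathway and hypoxia genes, 18 lay above 0 (median 0.05), with 3 called higher (0.831% of all genes) and 2 lower (0.585%). Among those higher, the collagen cross-linking enzyme Loxl2 rose by 0.39 ± 0.08 (edgeR, adjusted p = 0.0361) and haem oxygenase Hmox1 by 0.44 ± 0.08 (0.0196). Cited2, which competes with HIF for its coactivator, fell by 0.18 ± 0.04 (0.0489), and the transferrin receptor Tfrc, which is also a gene of red cell precursors, fell by 0.34 ± 0.06 (0.0138).

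With stage, the pyruvate dehydrogenase kinase Pdk4 rose in both genotypes, by 0.59 ± 0.10 in KO hearts (edgeR, adjusted p = 0.014) and 0.42 ± 0.10 in WT hearts (0.0362). In KO hearts Pdk2 rose as well. There 2 of 29 of the glycolysis, lactate and pyruvate genes were called higher (2.11% of all genes) and 0 lower (1.63%). In WT hearts 5 of 29 were called higher (2.08% of all genes) and 0 lower (1.96%). The 5 were Eno3, Mpc2, Pdk4, Pdha1 and Pdhb, which between them cover muscle enolase, the mitochondrial pyruvate carrier and pyruvate dehydrogenase. Of the 29 HIF pathway and hypoxia genes, Hif3a and Narf rose and the HIF partner Arnt2 fell in KO hearts (-0.99 ± 0.18, adjusted p = 0.0171), and in WT hearts Arnt2 fell (-0.74 ± 0.18, 0.0412) and 0 rose. Over all genes, 2.11% rose and 1.63% fell in KO hearts, and 2.08% rose and 1.96% fell in WT hearts.

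Levels can be set beside one another between genes only per length, here as CPM per kb of exon. Over the 12 hearts Aldoa was the most abundant of the 35 at a mean of 469 CPM per kb, followed by Pgk1 (413), Ldha (374), Tpi1 (366), Pgam1 (329) and Pkm (235). These 6 enzymes lay above every HIF pathway gene, of which Bnip3 was highest at 85.1 CPM per kb. In E14.5 KO hearts Pgk1, Ldha and Tpi1 had means of 467 ± 83.6, 406 ± 60.0 and 383 ± 54.1 CPM per kb (SD between hearts, n = 3). These genes were read in the same hearts, so that spread does not measure the difference between genes, which was not tested. At the low end stood Pfkfb4 at 0.642 and Car9 at 1.06 CPM per kb. Of the lactate and glucose transporters, Slc2a1 (48.8) was above Slc16a3 (26.4), and of the hexokinases Hk1 (39.3) was above Hk2 (15.6). Between the HIF alpha subunits, Hif1a at 49.4 CPM per kb stood above Epas1 at 10.99, and between the sensors Egln1 at 50.1 stood above Egln3 at 15.8. Rows with near-identical copies, such as Pgk1, Pgam1 and Eno1, may be read too low on this scale.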

How the data were processed

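The deposited table gives raw read counts per gene for each of the 12 hearts, made by the authors with STAR 2.5.3a and featureCounts on GRCm38, per the submitters' processing notes, from NEBNext Ultra libraries, per the labels' protocols. Strand setting and treatment of reads with several matches are not given in the sources used here. No column was left unused, and 27 rows whose symbols had been turned into dates were kept unnamed in library sizes.

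Counts were tested with edgeR 4.0.16 in R 4.3.3: TMM scaling, filterByExpr, 1 mean for each of 4 groups over all 12 libraries, robust quasi-likelihood F-tests with 8 residual degrees of freedom, and Benjamini-Hochberg adjustment over 20691 genes at 0.05. The biological coefficient of variation was 17.1%. The standard error is the fold change divided by the root of F. CPM used the same scaling, and log2 CPM a prior count of 2. Procedures were tested on simulated data. With 3 embryos a group, an exact permutation test of 1 gene could not give a p below 0.1, so none is reported. Embryos are separate animals, per the labels, and no pair of libraries within a group agreed within sampling noise.

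The labels give litters, so litter as a replicate block was an alternative. Deviations from group means correlated by 0.004 on average between E14.5 KO and WT hearts of the same litter, and by -0.005 between litters. Such deviations sum to 0 within a group, so the 2 averages are tied to each other and count as 1 comparison. Other alternatives were DESeq2 1.42.0, scaling by RLE, testing without a low-count filter or on the compared libraries alone, Y-linked or erythroid expression as covariate, each library left out, litter 3 left out, and both macrophage-poor hearts (E14.5 KO 2, E13.5 KO 5) left out. Ordinary moderation and added copy rows were chosen after seeing the data.

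The members and lists were chosen with earlier results of these data known. Values in every heart are given for each member called in any comparison and, per role, for the 2 members with the smallest p in KO against WT averaged over the stages and in E14.5 against E13.5 of WT hearts. Gene positions and exon lengths came from GENCODE on GRCm38, and promoter windows from RefSeq. The values of 1 gene of the further HIF pathway and hypoxia list are not reported here.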

Additional observations from a re-analysis of the deposited data

How the results depend on the processing

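The number of members called moved more than their direction. For KO against WT averaged over the stages (2 members, 1.42% of all genes), DESeq2 called 8 (4.75%) and a Y-linked covariate 4 (1.6%). The fits without litter 3 and without both macrophage-poor hearts (E14.5 KO 2, E13.5 KO 5) called 0 each (1.58% and 0.297%). With 1 library left out at a time, calls ran from 0 (without E13.5 WT 4 or E13.5 KO 5) to 5 (without E14.5 KO 4), beside 0.599% to 2.31% of all genes. At single stages DESeq2 called 3 at E14.5 (1.95% of all genes) and 1 at E13.5 (1.63%), against 0 in edgeR (0.222% and 0.106%). For E14.5 against E13.5 in KO hearts (3 members, 3.74% of all genes), DESeq2 called 8 (9.55%). The fits on the compared libraries (1.43%), with a Y-linked covariate (1.91%) and without litter 3 (3.31%) called 1 each. The fit without both macrophage-poor hearts called 0 (0.613%). Single libraries gave 0 to 6, beside 0.316% to 5.09% of all genes. In WT hearts (2 members, 4.04% of all genes), DESeq2 called 7 (11.5%) and litter as a replicate block 4 (8.33%). RLE size factors (3.92%), no filter (2.37%) and ordinary moderation (3.7%) gave 1 each. The compared libraries alone (2.97%), the Y-linked (2.95%) or erythroid (3.78%) covariate, no litter 3 (0.45%) and neither macrophage-poor heart (2.23%) gave 0 each. Single libraries gave 0 to 2, beside 0.0383% to 5.17% of all genes. The cause was not tested. With litter as a replicate block, P4ha1 (adjusted p = 0.0477) and P4ha2 (0.0222) were still called, and no call but those in WT hearts and Pfkm in KO hearts across the stages was added. The KO medians across the stages ranged from -0.1044 to 0.0307 for glycolysis and from 0.1384 to 0.3524 for the HIF pathway when single libraries were left out, the lower ends without E14.5 KO 2. Signs turned for values near 0 averaged over the stages: Pfkfb4 to 0.0422 without both macrophage-poor hearts; Ddit4 to -0.0177 without E13.5 KO 5, -0.0122 without E14.5 KO 2, -0.0251 without E14.5 WT 7.2, -0.0031 without litter 3 and -0.0486 without both macrophage-poor hearts; Car9 (0.0019) to -0.0915 without both macrophage-poor hearts, -0.0144 with the erythroid covariate, -0.0081 in DESeq2, and between -0.081 and -0.0074 without E13.5 WT 4, E13.5 KO 5, E14.5 WT 8, E14.5 WT 7, E14.5 KO 2 or E14.5 KO 1; Ndrg1 to 0.0091 and Mxi1 to 0.0003 without E13.5 WT 1; Mxi1 also to 0.0058 without E13.5 KO 3, 0.0174 without E14.5 WT 7.2 and 0.0195 without litter 3. Leaving out single libraries gave -0.0251 to 0.0732 for Ddit4, -0.2239 to 0.0091 for Ndrg1 and -0.0372 to 0.0174 for Mxi1. Over the alternatives, the averaged medians stayed above 0, at 0.1475 to 0.2251 for glycolysis and 0.0738 to 0.189 for the HIF pathway. Counts over all genes also depended on the tool: averaged over the stages edgeR called 293 genes, 63 without both macrophage-poor hearts and 125 to 483 without single libraries, and DESeq2 926. At E14.5 edgeR called 46 and DESeq2 348, at E13.5 they called 22 and 310, across the stages in KO 774 and 1822, and in WT 836 and 2140; with litter as a replicate block edgeR called 92, 60, 1404 and 1723 in these comparisons. Over all alternatives these 4 counts ran from 2 to 348, 2 to 310, 66 to 1822 and 8 to 2140. Each group held 3 hearts, with a variation of 17.1% between them. The SE of the members averaged over the stages ran from 0.05 to 0.19 on the log2 scale. Differences within that error were not detectable. Differences well beyond it also went uncalled, such as Pgk1 at 0.30 ± 0.07 (edgeR, adjusted p = 0.0626).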

Other observations

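Eno1 and its near-identical copy row Eno1b did not share reads at a constant ratio. Eno1 held 0.605 to 0.618 counts per Eno1b count in 5 hearts (E14.5 KO 1, E14.5 WT 7 and 7.2, E13.5 KO 7 and E13.5 WT 2). The ratio was 0.715 to 0.744 in 6 hearts (E14.5 KO 2, E14.5 WT 8, E13.5 KO 3 and 5, E13.5 WT 1 and 4) and 0.851 in E14.5 KO 4. In each group, the hearts at 0.605 to 0.618 also had the lowest CPM of Eno1. The ratios fell into separate sets that cut across genotype, stage and litter. By contrast, Pgk1-rs7 stayed at 138% to 150% of Pgk1 over the same 12 libraries.

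Hmox1, haem oxygenase, rose in KO hearts at E14.5 (edgeR, log2 fold change 0.74 ± 0.12, adjusted p = 0.0241), where the means were 20.4 CPM in KO and 12.2 CPM in WT hearts. At E13.5 the means were 16.3 CPM in KO and 14.9 CPM in WT hearts (0.13 ± 0.12, adjusted p = 0.717). The difference between these effects did not pass (0.61 ± 0.16, adjusted p = 0.997).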
